A study of Mus musculus with 8 samples.

Results

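The 37 genes described here are transcriptional targets of p53, the transcription factor encoded by Trp53. They were taken as a list of known targets, spread over the arms of the p53 response (cell cycle arrest, cell death, DNA repair, metabolism and signalling), by a rule that uses no measured value. Of the 37, 33 were in the deposited table of 11854 named entries, and all 33 passed the filter on low values. Eda2r, Pmaip1, Rps27l and Polh were not in the table under their symbols or RefSeq synonyms and were not analysed here.

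Haematopoietic stem cells (HSCs) had been sorted from the bone marrow of mice labelled Nupr1-/- and of wild type mice, all of strain C57BL/6, and 4 libraries of polyadenylated RNA were made per group. Nupr1 encodes a small chromatin protein induced by stress, and the series title links it to HSC quiescence and p53 signalling. The labels give no age and no sex, do not say whether the libraries of a group came from separate mice, and give neither which part of Nupr1 was deleted nor which surface markers defined the sort. Values are normalised reads, that is, reads divided by 1 size factor per library.

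p53 is held at a low level in unstressed cells by the ubiquitin ligase MDM2. After DNA damage or other stress it accumulates, binds response elements made of a pair of similar sequence blocks, and raises the transcription of genes that stop the cell cycle, repair DNA, restrain growth or start apoptosis. Several of its targets act back on p53 itself, among them Mdm2, Ccng1 and Ppm1d. In HSCs, p53 is known as a regulator of quiescence and of the response to radiation.

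Some facts of the libraries bear on every value below. Nupr1 itself had 119 to 201 normalised reads in knockout-labelled libraries and 134 to 318 in wild type libraries, and the groups overlapped (log2 change -0.50, limma adjusted p = 0.433), so that groups are named here as labelled. Depth was 2296101 to 3959564 reads in knockout-labelled libraries and 3340217 to 4769401 in wild type. Xist was read at 107 to 159 in knockout-labelled libraries, at 11.8 in wild type library 2 and at 0 in the other wild type libraries. Tsix, whose exons overlap those of Xist, was at 323 to 444 in knockout-labelled libraries. In wild type libraries 1 to 4 it was at 22.3, 209, 18.9 and 4.53, so that wild type library 2 stood apart here as well. The labels give no sex, and Xist parts the groups as genotype does. For any gene below, a difference of sex and one of genotype therefore cannot be told apart. All 12 HSC markers checked (among them Kit, Procr and Mecom) were present, with a summed level of 8913 to 11102 in knockout-labelled libraries and 9137 to 12440 in wild type, and 0 of 12 past the test. Megakaryocyte and platelet markers were higher in knockout-labelled libraries (summed level 1890.3 to 2413, against 718 to 1114 in wild type; 4 of 6 tested genes rose), while cycling markers overlapped (4359 to 8259 in knockout-labelled libraries, 2383 to 5830 in wild type; 0 of 10 passed). Of the erythroid markers 5 of 9 were in the table, with a summed level of 293 to 385 in knockout-labelled libraries and 141 to 341 in wild type, and 1 of 3 tested, Klf1, rose. For neutrophils, monocytes with macrophages, and T with NK cells, 1 of 8, 2 of 6 and 2 of 6 markers were in the table, 0 of the 4 tested passed, and Elane, Mpo, Csf1r and Cd3e were not in it. The markers present were read, with summed levels of 847 to 1445 (knockout-labelled) and 983 to 2908 (wild type) for neutrophils. Sums for monocytes with macrophages were 1438 to 2659 and 1600 to 3569, and for T with NK cells 71.5 to 133 and 1.39 to 275, in the same order. Absence of these cells is therefore not read from the markers. On the first principal component 1 library, wild type library 2, was far from the rest (25.6% of the variance). Whether any of these moved the p53 targets was not tested, except where values without wild type library 2 are given.

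Trp53, the gene upstream of all 37, fell in knockout-labelled libraries. It had 118, 58.6, 102 and 119 normalised reads in knockout-labelled libraries 1 to 4, against 450.5, 528, 594 and 618 in wild type libraries 1 to 4 (log2 change -2.49 ± 0.31 SE, limma adjusted p = 0.00155). In bulk RNA, fewer expressing cells and less RNA per cell cannot be told apart.

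Among the 33 target genes that were tested, 2 rose, 1 fell and 30 did not pass (limma on log2 values, adjusted p under 0.05). Ptp4a3 and Pidd1 were the genes that rose and Plk2 the gene that fell. Of all 10989 genes tested 3.8% passed, 1.68% higher and 2.12% lower, and at 3 of 33 members no departure from that share is read from the count. An unadjusted p under 0.05 was found for 8 of the 33, against 19.7% of all genes. The values of the groups did not overlap for 5 members (Ptp4a3 and Pidd1 higher, Plk2, Ccng1 and Gadd45a lower), against 11.7% of all genes (5.78% higher, 5.91% lower). The median log2 change of the members was 0.10, beside 0.02 over all genes tested, with 20 members above 0 and 13 below, and it was -0.08 without wild type library 2. The median size of the change, taken without sign, was 0.75 for the members and 0.49 for all genes. The median over the members of the mean level was 101 normalised reads, and 10 of the 33 averaged under 50. The size of a change can depend on the level, and levels were not taken over all genes. The larger median size is therefore not read as particular to the members.

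**Figure D1:**
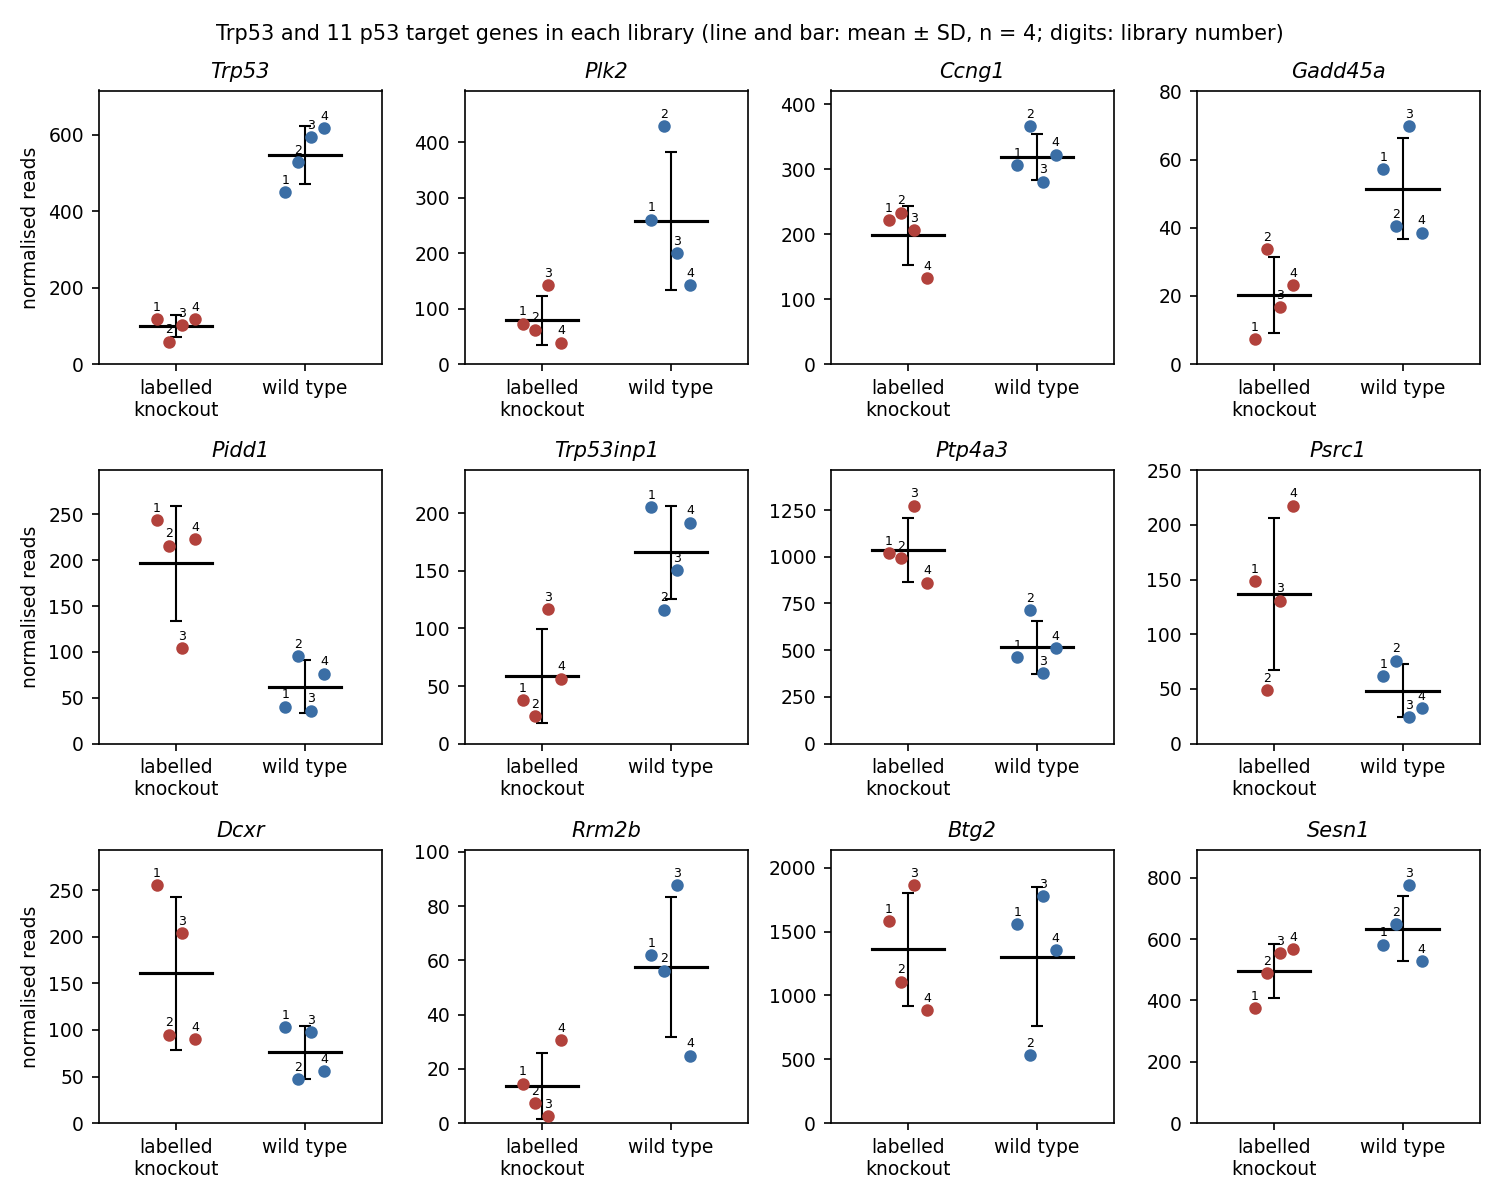
Normalised reads (vertical axes, from 0) of Trp53 and 11 p53 target genes in the 4 knockout-labelled libraries (red, left) and the 4 wild type libraries (blue, right). Points are libraries with their numbers, lines are means and bars SD; Trp53, Plk2, Ccng1 and Gadd45a lie lower and Pidd1 and Ptp4a3 higher in all knockout-labelled libraries, and the groups of the other panels overlap.

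The 5 promoters below belong to Plk2 and Pidd1, 2 of the 3 called genes (for Ptp4a3 no window was at hand), and to the tested members whose window holds the closest match to a p53 response element, and show what sequence p53 could meet near the start of each gene. Windows run from 250 bases before to 50 bases after a RefSeq start (GRCm38.p6, the assembly of mm10), and 28 of the 37 genes have at least 1. Each window was searched for the p53 half-site consensus, a block of 10 letters that reads alike on both strands, and for pairs of such blocks up to 13 bases apart with at most 2 mismatches over the 20 letters. In such pairs no mismatch was allowed at the fixed C and the fixed G of a block. Of the 33 tested members 25 have a window, and 3 of these held such a pair (Ccng1, Gadd45a and Sesn1), against 4.71% of all 27025 genes with a window. An exact block was found in 7 of the 25 (those 3 with Aen, Ei24, Polk and Ppm1d), against 9.55% of all genes. Capitals mark exact blocks and both blocks of a pair, and the windows of Plk2 and Pidd1 hold neither.
Ccng1, chr11:40755237-40755536, minus strand: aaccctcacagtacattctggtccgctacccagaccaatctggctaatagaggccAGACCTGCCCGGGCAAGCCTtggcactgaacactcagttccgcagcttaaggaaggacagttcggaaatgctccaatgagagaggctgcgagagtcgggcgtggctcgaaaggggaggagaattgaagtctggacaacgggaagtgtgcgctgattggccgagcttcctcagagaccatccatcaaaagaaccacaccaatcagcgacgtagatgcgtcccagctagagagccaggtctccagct
Gadd45a, chr6:67037358-67037657, minus strand: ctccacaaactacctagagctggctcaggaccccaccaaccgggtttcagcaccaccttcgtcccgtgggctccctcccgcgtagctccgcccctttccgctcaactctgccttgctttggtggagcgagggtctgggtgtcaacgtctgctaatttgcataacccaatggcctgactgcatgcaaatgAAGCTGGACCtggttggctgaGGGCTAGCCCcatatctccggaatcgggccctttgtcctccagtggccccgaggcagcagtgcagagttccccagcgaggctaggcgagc
Sesn1, chr10:41887189-41887488, plus strand: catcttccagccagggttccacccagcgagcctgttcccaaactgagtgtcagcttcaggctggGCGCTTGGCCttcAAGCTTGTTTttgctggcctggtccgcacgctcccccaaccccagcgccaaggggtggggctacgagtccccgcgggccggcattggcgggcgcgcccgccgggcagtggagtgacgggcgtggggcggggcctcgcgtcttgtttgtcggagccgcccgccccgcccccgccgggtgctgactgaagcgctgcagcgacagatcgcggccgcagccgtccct
Plk2, chr13:110394794-110395093, plus strand: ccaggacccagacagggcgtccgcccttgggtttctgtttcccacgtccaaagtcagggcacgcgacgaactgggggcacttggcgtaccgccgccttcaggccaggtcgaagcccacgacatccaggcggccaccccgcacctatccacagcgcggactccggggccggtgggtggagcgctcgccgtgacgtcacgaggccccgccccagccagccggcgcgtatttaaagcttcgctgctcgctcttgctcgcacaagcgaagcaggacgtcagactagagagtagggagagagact
Pidd1, chr7:141443976-141444275, minus strand: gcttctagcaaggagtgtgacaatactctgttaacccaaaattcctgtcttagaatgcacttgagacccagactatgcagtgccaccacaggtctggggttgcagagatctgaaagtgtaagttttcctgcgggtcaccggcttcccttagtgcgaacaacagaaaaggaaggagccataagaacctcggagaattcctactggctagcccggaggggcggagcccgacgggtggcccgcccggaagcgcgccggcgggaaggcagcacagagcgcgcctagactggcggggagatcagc
In Ccng1 the blocks adjoin with 1 mismatch, while in Sesn1 they are 3 bases and in Gadd45a 11 bases apart, each with 2 mismatches. All 3 genes with a pair had a log2 change below 0, and none of the 3 passed the test. Below 0 also lay 5 of the 22 without a pair, 13 of all 33 tested members, windowed or not, and 5349 of the 10989 genes tested. These counts were made after the values were seen, and a match in letters is not a measured binding site.

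The cell cycle arm (9 members) held the gene that fell. Plk2, a polo-like kinase of centriole duplication and the stress response, had 72.9, 62.3, 142 and 38.9 normalised reads in knockout-labelled libraries 1 to 4, against 260.4, 429, 199 and 143 in wild type libraries 1 to 4. Library 3 labelled knockout (142.2) and wild type library 4 (142.85) were the closest pair and nearly touched, so that the groups did not overlap only by a narrow margin. Plk2 averaged 79.1 ± 44.4 in knockout-labelled libraries and 258 ± 124 in wild type (SD, n = 4 each), so that it fell by 1.73 ± 0.44 (SE) on the log2 scale (limma adjusted p = 0.0379, lower in 4 of 4). It is encoded on chromosome 13 (mm10, 110395046 to 110400844, plus strand), and its exons overlap no other gene. Plk3, a second member of the same kinase family, had 133, 108, 69.8 and 25.9 normalised reads in knockout-labelled libraries, against 37.6, 62.1, 76.8 and 17.4 in wild type. The groups overlapped for Plk3 (log2 change 0.75, 95% interval -0.60 to 2.11, adjusted p = 0.551), and 84 bases of its exons are shared with Tctex1d4.

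Ccng1 encodes cyclin G1, which recruits a phosphatase to MDM2 and so feeds back on p53. It had 222, 233, 207 and 132 normalised reads in knockout-labelled libraries 1 to 4, against 306, 367, 281 and 323 in wild type, and the groups did not overlap. The log2 change of -0.71 ± 0.28 (SE) did not pass over all genes (limma adjusted p = 0.172). Gadd45a, a growth arrest protein that binds PCNA and p21, had 7.29, 33.7, 16.8 and 23.1 in knockout-labelled libraries, against 57.1, 40.4, 69.8 and 38.5 in wild type, again without overlap. These levels rest on 5 to 82 reads per library, the log2 change of -1.44 had a 95% interval of -3.01 to 0.12 (adjusted p = 0.294), and 337 bases of its exons are shared with E230016M11Rik. Ccng1 and Gadd45a thus had lower values in all 4 knockout-labelled libraries, and neither passed the test.

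Psrc1, which binds spindle microtubules, lay the other way, with 149, 48.6, 131 and 218 normalised reads in knockout-labelled libraries, against 62.0, 75.9, 23.9 and 32.5 in wild type. Library 2 labelled knockout lay inside the wild type range (log2 change 1.43, 95% interval 0.26 to 2.60, adjusted p = 0.163). Btg2, an antiproliferative adaptor of mRNA deadenylation, was the most abundant member, at 496 normalised reads per kilobase of its longest transcript in knockout-labelled libraries and 476 in wild type. By library it had 1584, 1108, 1863 and 886 normalised reads in those labelled knockout, against 1557, 534, 1776 and 1353 in wild type (log2 change 0.13, 95% interval -0.60 to 0.87). The groups overlapped throughout, and wild type library 2 was the lowest of all 8.

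Of the other 3 members of the arm, Ppm1d, the phosphatase WIP1 that switches off p53 after damage, averaged 115 ± 42.2 in knockout-labelled libraries and 111 ± 31.5 in wild type (SD, n = 4 each). Fbxw7, the substrate receptor of a ubiquitin ligase for cyclin E and MYC, averaged 91.2 ± 19.4 (knockout-labelled) and 140.1 ± 72.5 (wild type). Zmat3, an RNA-binding zinc finger protein, averaged 16.3 ± 14.4 (knockout-labelled) and 16.1 ± 5.88 (wild type). Their adjusted p ran from 0.740 to 0.986. For Fbxw7 wild type library 2 (32.5) was the lowest of all, and the other 3 wild type libraries (162 to 186) lay above all 4 labelled knockout (63.6 to 108).

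The death arm has 13 members, of which 10 were tested. Pidd1 encodes the scaffold of the PIDDosome, a complex that activates caspase-2. It had 244, 216, 104 and 223 normalised reads in knockout-labelled libraries 1 to 4, against 40.4, 95.6, 35.9 and 76.3 in wild type libraries 1 to 4. All 4 knockout-labelled libraries lay above all 4 wild type libraries, with library 3 the nearest. The mean was 197 ± 62.7 in knockout-labelled libraries and 62.0 ± 28.8 in wild type (SD, n = 4 each), and Pidd1 rose by 1.69 ± 0.45 (SE) on the log2 scale (limma adjusted p = 0.0444). It is encoded on chromosome 7 (141438113 to 141444025, minus strand), with no exon shared with another gene. Its call was lost with a replicate term in the fit (adjusted p = 0.0513) and without a filter on low values (0.0512).

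Trp53inp1, a nuclear partner of p53 in cell death and autophagy, lay the other way, at 37.9, 23.7, 117 and 56.5 normalised reads in knockout-labelled libraries against 205, 116, 151 and 192 in wild type. Library 3 labelled knockout (116.6) and wild type library 2 (116.3) touched, and no other pair overlapped. The log2 change of -1.69 ± 0.50 (SE) missed the threshold with limma (adjusted p = 0.0655) and edgeR (0.110) and passed with DESeq2 (0.0396) and limma-voom (0.0275).

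The death receptors were near the floor of the measurement. Fas had 46.7, 14.96, 39.8 and 20.4 normalised reads in knockout-labelled libraries, against 13.2, 0, 7.98 and 22.7 in wild type, with overlap (adjusted p = 0.352). Tnfrsf10b, the mouse TRAIL receptor, averaged 28.8 ± 17.5 in knockout-labelled libraries and 32.2 ± 28.2 in wild type (SD, n = 4 each). Apaf1, the scaffold of the apoptosome, averaged 154 ± 36.0 (knockout-labelled) and 92.8 ± 25.6 (wild type), and the value of wild type library 4 (130.0) lay inside the range of those labelled knockout (log2 change 0.73, 95% interval -0.07 to 1.54, adjusted p = 0.299).

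Perp, a membrane protein of desmosomes with a role in p53-dependent death, ranged widely in both groups. It had 16.0, 51.1, 1.77 and 25.0 normalised reads in knockout-labelled libraries, against 199.8, 2.96, 89.7 and 62.7 in wild type (adjusted p = 0.482). Without wild type library 2 its groups did not overlap, and the log2 change was -2.72 against -1.54 with it (adjusted p = 0.0588 without). The most abundant member of the arm per length was Ei24, an endoplasmic reticulum protein, with 233, 191, 161 and 221 normalised reads in knockout-labelled libraries against 219, 254, 185 and 291 in wild type. Its groups overlapped (log2 change -0.23, 95% interval -0.84 to 0.38), and 324 bases of its exons are shared with Gm26787.

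Aen, a nuclease of apoptosis, averaged 189 ± 17.1 in knockout-labelled libraries and 193 ± 105 in wild type (SD, n = 4 each), and its highest value was in wild type library 2 (349). Phlda3, an inhibitor of AKT, averaged 18.7 ± 9.36 (knockout-labelled) and 12.8 ± 9.63 (wild type). Dram1, a lysosomal protein of autophagy, averaged 18.5 ± 16.2 (knockout-labelled) and 21.2 ± 24.5 (wild type). Dram1 was at 0 in 1 library of each group, and its 95% interval (-3.002 to 3.09 on the log2 scale) left its direction unmeasured.

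**Figure D2:**
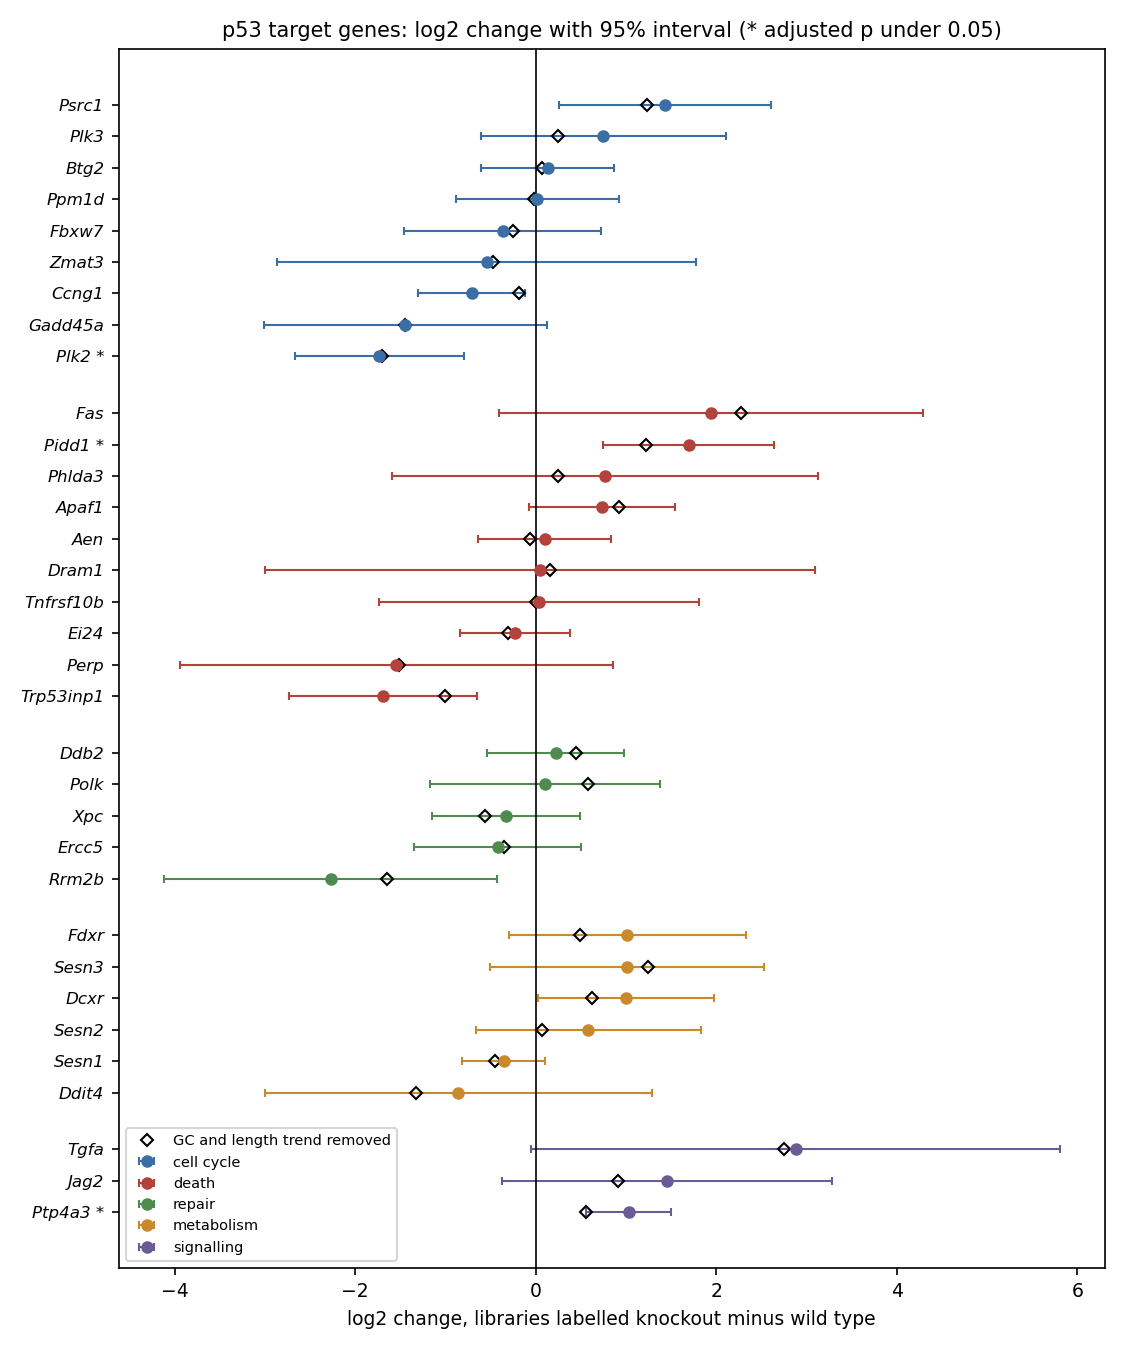
Log2 change (horizontal axis, knockout-labelled libraries minus wild type) of the 33 tested members by arm; filled circles are the estimates as deposited with 95% intervals, open diamonds the estimates after removal of the trend in GC content and length, and asterisks mark adjusted p under 0.05. The members of every arm but signalling lie on both sides of 0, and the intervals of 17 members reach beyond a 4-fold change.

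The repair arm (6 members, 5 tested) had 0 genes past the test. Rrm2b encodes the p53-inducible small subunit of ribonucleotide reductase, which supplies nucleotides for repair in cells that are not dividing. It had 14.6, 7.48, 2.65 and 30.6 normalised reads in knockout-labelled libraries, against 62.0, 56.2, 87.7 and 24.9 in wild type. Library 4 labelled knockout lay above wild type library 4, and the other libraries were parted (log2 change -2.27, 95% interval -4.12 to -0.42, adjusted p = 0.159). These values rest on 3 to 89 reads, and 734 bases of its exons are shared with Gm49085.

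Ddb2 and Xpc are damage sensors of nucleotide excision repair. Ddb2 had 178, 317, 234 and 332 normalised reads in knockout-labelled libraries, against 107, 283, 213 and 367 in wild type (log2 change 0.22, 95% interval -0.54 to 0.98), and shares 652 exon bases with Acp2. Xpc averaged 210.1 ± 97.7 in knockout-labelled libraries and 247 ± 94.0 in wild type (SD, n = 4 each). The endonuclease gene Ercc5 averaged 95.1 ± 36.8 (knockout-labelled) and 123 ± 40.4 (wild type), and Polk, a translesion polymerase, 52.9 ± 18.6 (knockout-labelled) and 51.3 ± 23.5 (wild type). The groups of all 4 overlapped, with adjusted p from 0.635 to 0.948.

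In the metabolic arm (6 members, all tested) 0 genes passed, and the 3 sestrins, which restrain mTORC1 when nutrients are short, did not lie on 1 side. Sesn1 was the second most abundant member per length, at 130.3 normalised reads per kilobase in knockout-labelled libraries and 166 in wild type. It had 375, 490.0, 553 and 568 normalised reads in knockout-labelled libraries, against 582, 648, 776 and 529 in wild type. Wild type library 4 alone lay among those labelled knockout (log2 change -0.36, 95% interval -0.82 to 0.11, adjusted p = 0.393), and with the GC and length trend removed the groups of Sesn1 no longer overlapped. Sesn2 averaged 70.0 ± 32.2 in knockout-labelled libraries and 44.5 ± 15.9 in wild type, and Sesn3 73.0 ± 46.0 (knockout-labelled) and 40.2 ± 26.6 (wild type; SD, n = 4 each; adjusted p = 0.623 and 0.465).

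Dcxr, a reductase of sugars and dicarbonyls, had 255, 94.8, 204 and 89.8 normalised reads in knockout-labelled libraries, against 103, 47.3, 97.7 and 55.9 in wild type. Libraries 1 and 3 labelled knockout were high and the other 2 lay within the wild type range (log2 change 1.004, 95% interval 0.03 to 1.98, adjusted p = 0.240). Fdxr, the ferredoxin reductase of mitochondria, averaged 127 ± 72.6 in knockout-labelled libraries and 75.8 ± 56.9 in wild type (adjusted p = 0.386). Without wild type library 2, where it had 14.8, the log2 change of Fdxr was 0.40 against 1.02 with it. Ddit4, the mTORC1 inhibitor REDD1, was low in both groups, at 10.2 ± 6.52 (knockout-labelled) and 20.3 ± 12.4 (wild type; adjusted p = 0.686).

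The 3 signalling members all lay above 0. Ptp4a3, a phosphatase of the PRL family, had 1019, 991, 1273 and 861 normalised reads in knockout-labelled libraries, against 462, 713, 376 and 511 in wild type. All 4 knockout-labelled libraries were above all 4 wild type libraries, and Ptp4a3 rose by 1.03 ± 0.22 (SE) on the log2 scale (limma adjusted p = 0.0191, the lowest of the 33). It is encoded on chromosome 15 (73723145 to 73758766, plus strand), with no exon shared with another gene. Jag2, a Notch ligand, averaged 56.2 ± 15.9 in knockout-labelled libraries and 34.2 ± 36.7 in wild type, where library 2 had 84.7 and library 3 had 2.99 (adjusted p = 0.375). Tgfa, a ligand of the EGF receptor, had 43.7, 21.2, 30.0 and 3.70 in knockout-labelled libraries, against 2.09, 0, 14.96 and 0 in wild type. At 0 to 34 reads per library its log2 change had a 95% interval of -0.05 to 5.81 (adjusted p = 0.263).

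**Figure D3:**
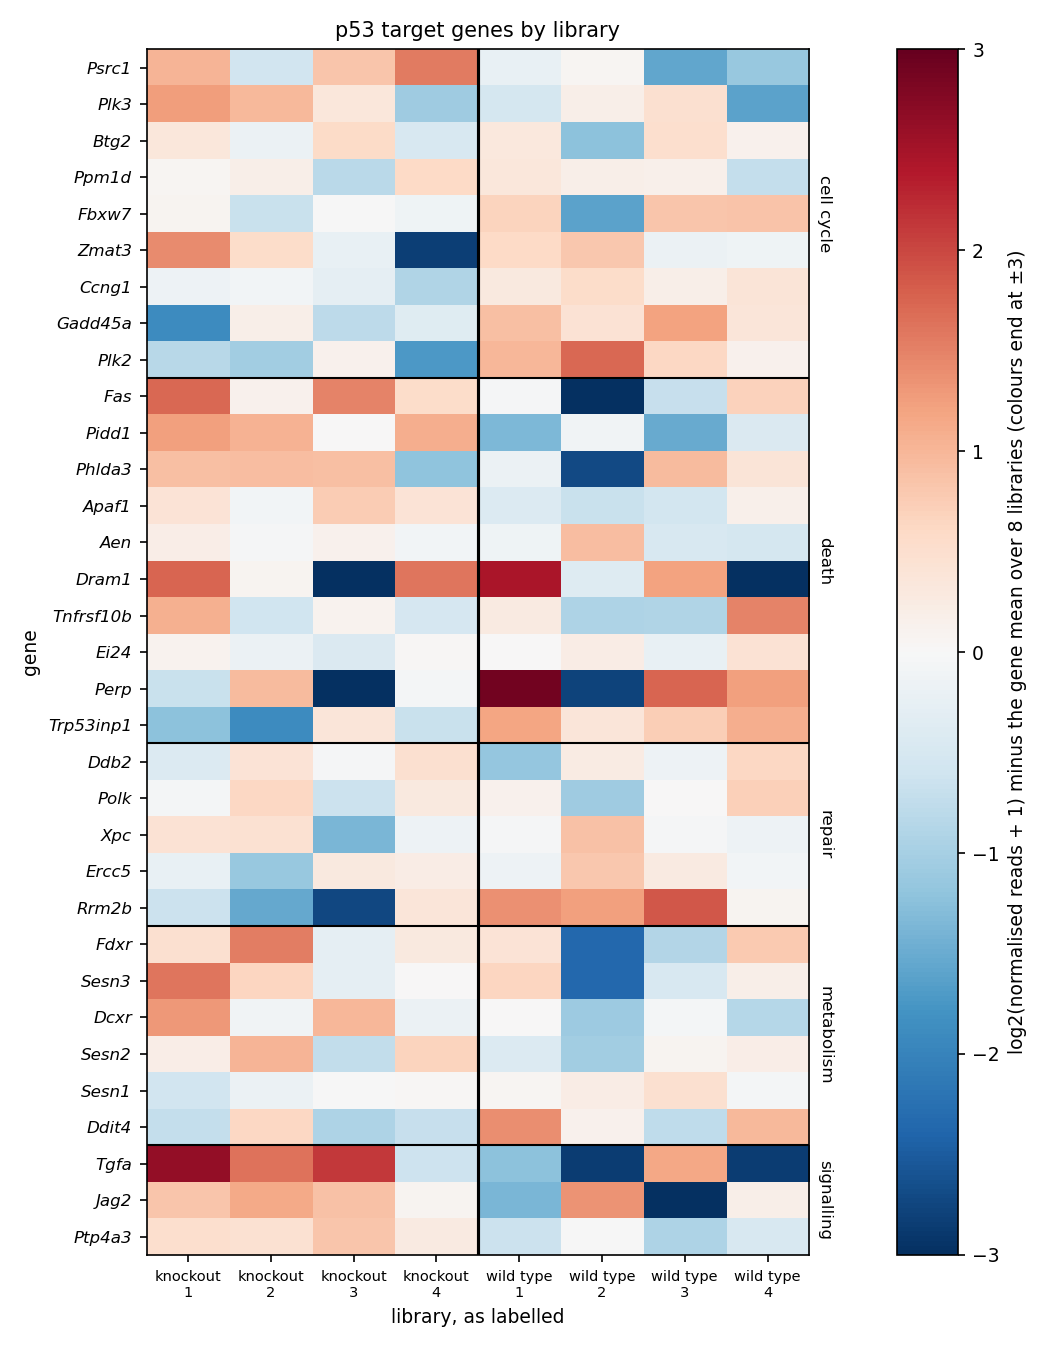
Deviation of each of the 33 members (rows, by arm) from its own mean over the 8 libraries, as log2(normalised reads + 1), in the 4 knockout-labelled libraries (left) and the 4 wild type libraries (right); red is above and blue below the gene mean. Rows of opposite pattern stand beside each other within an arm, and wild type library 2 holds the lowest value of 12 of the 33 members.

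The extremes of the 33 genes lay most often in wild type library 2. The lowest of the 8 values was in wild type library 2 for 12 members and in library 3 labelled knockout for 7, while the highest was in library 1 labelled knockout for 7 and in wild type library 2 for 6. Wild type library 2 was thus at an extreme for 18 of 33 members. Ties at 0 with wild type library 4 were counted for wild type library 2 (Tgfa) and for library 3 labelled knockout (Dram1). Extremes were not counted over all genes, so these counts are not read as particular to the members. Without wild type library 2, 9 members had groups that did not overlap, against 20.4% of all genes. Ptp4a3, Pidd1 and Aen were higher, and Plk2, Ccng1, Gadd45a, Trp53inp1, Perp and Fbxw7 lower. Pidd1, Trp53inp1 and Ptp4a3 passed in that fit (adjusted p = 0.0122, 0.0318 and 0.00247; 8.02% of all genes passed) and Plk2 did not (0.0564).

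How small a change could be seen differed among members. For 6 of them, Btg2, Ppm1d, Aen, Ei24, Ddb2 and Sesn1, the 95% interval lay within a 2-fold change either way, as it did for 24.9% of all genes. For 17 members the interval reached beyond a 4-fold change, Plk2 and Pidd1 among them, so that the size of their change is loosely bounded. The share beyond 4-fold was not taken over all genes, so this count is not read as particular to the members.

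GC content of the longest transcript tracked the difference between the groups, among the members as in the whole table. Across 10892 genes, which are not independent replicates, the log2 change had a Spearman correlation of 0.449 with GC content, and across the 33 members of 0.452. Of 9 members with a GC content of at least 55%, 8 lay above 0, Pidd1 (57.2%) and Ptp4a3 (58.4%) among them. Of 6 members with a GC content below 45%, 3 lay below 0 (Trp53inp1 at 38.8%, Rrm2b at 39.4% and Ccng1 at 40.8%) and the other 3 above (Polk, Fas and Sesn3). After the trend in GC content and length was taken out of each library, 0 of 33 members passed, beside 0.321% of all genes, and 5 had an unadjusted p under 0.05 (Plk2, Psrc1, Apaf1, Pidd1 and Ptp4a3; 13.1% of all genes). After this removal the groups did not overlap for 2 members, Gadd45a and Sesn1, against 7.75% of all genes. Those of Plk2, Pidd1, Ptp4a3 and Ccng1, which were apart before, overlapped. The log2 change of Plk2 (GC content 48.0%) was then -1.70 (adjusted p = 0.0994) and that of Gadd45a -1.45. It was 1.22 for Pidd1 (adjusted p = 0.246), 0.56 for Ptp4a3 (0.264), -0.9999 for Trp53inp1 (0.403), against -1.69 before, -1.64 for Rrm2b (0.432) and -0.18 for Ccng1 (0.840). Whether the GC difference is technical was not tested.

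**Figure D4:**
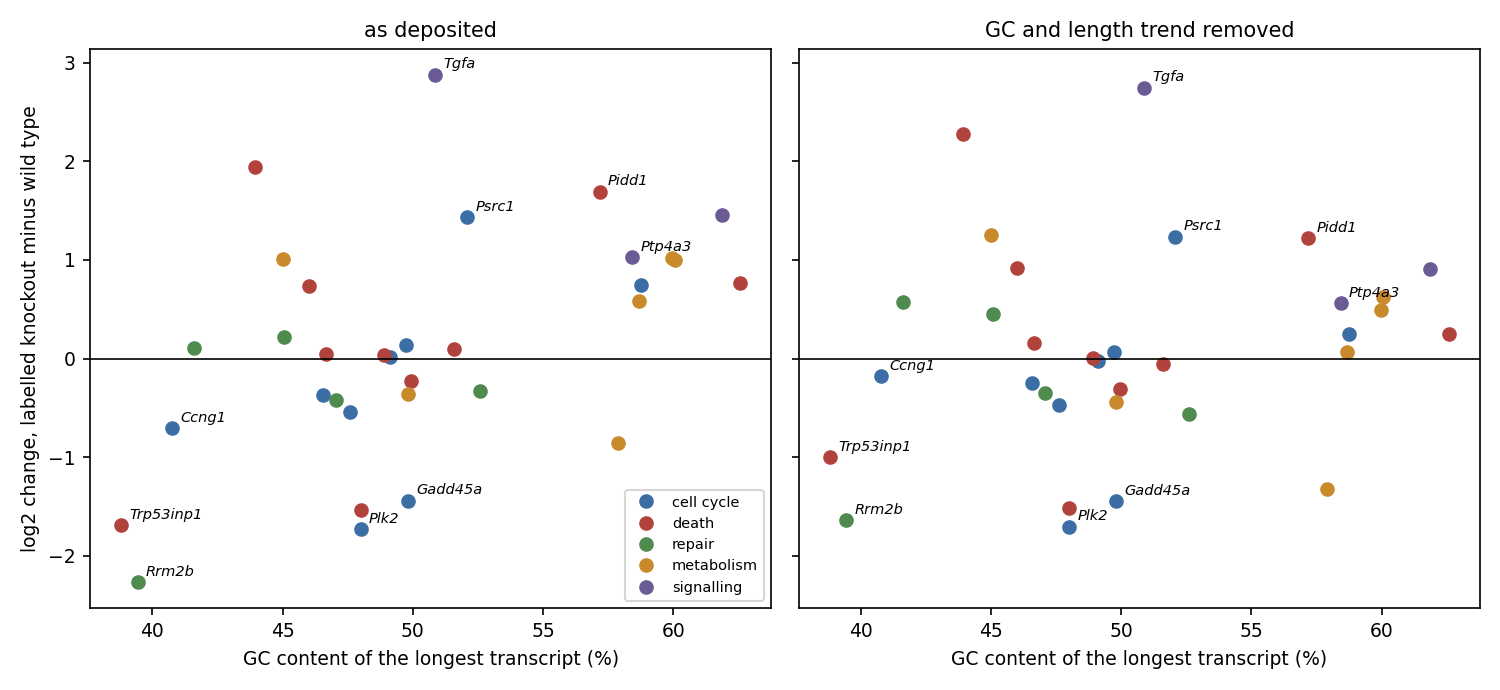
Log2 change of the 33 members (vertical axes, knockout-labelled libraries minus wild type) against the GC content of the longest transcript (horizontal axes), as deposited (left) and with the GC and length trend removed (right), coloured by arm. On the left 3 of the 6 members below 45% (Trp53inp1, Rrm2b and Ccng1) lie below 0 and 8 of the 9 members at 55% or more lie above it, while Plk2 keeps its place on the right.

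Of 23 further p53 targets listed beside the members, 17 were in the table, 14 were tested and 0 were called by limma, with 1 at an unadjusted p under 0.05. Cdkn1a, the cell cycle inhibitor p21, had 70.0, 98.5, 229 and 56.5 normalised reads in knockout-labelled libraries, against 85.6, 49.3, 197 and 319.7 in wild type. Mdm2 had 245, 360.4, 262 and 371 in knockout-labelled libraries, against 306, 371, 276 and 279.7 in wild type, with a log2 change of -0.01 and a 95% interval of -0.56 to 0.54. The death genes Bax (42.6 ± 16.1 in knockout-labelled libraries and 31.5 ± 18.8 in wild type) and Bbc3 (20.6 ± 12.2 in knockout-labelled libraries and 9.62 ± 10.04 in wild type; SD, n = 4 each) overlapped as well. Gpx1, a peroxidase of the antioxidant defence, was that gene, at 4686 ± 255 in knockout-labelled libraries and 3199 ± 644 in wild type (adjusted p = 0.0513 in limma, 0.0789 in edgeR, 0.0159 in DESeq2 and 0.0123 in limma-voom). Of 24 regulators and partners of p53, 19 were tested, 2 fell (Trp53 and Ccar2, the inhibitor of SIRT1) and 0 rose. Ccar2 had 62.9 ± 12.7 normalised reads in knockout-labelled libraries and 333 ± 134 in wild type (SD, n = 4 each; adjusted p = 0.00596). Both lists were chosen with earlier results of these data known, and Trp53 and Ccar2 were already seen to be low.

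The 3 calls among the members did not rest on the libraries alike. Leaving out 1 library at a time, Ptp4a3 passed in 3 of 8 fits (highest adjusted p 0.0694), Plk2 in 2 of 8 (highest 0.0960) and Pidd1 in 2 of 8 (highest 0.153). The count of called members was 0 without library 1 or 2 labelled knockout or without wild type library 1 or 3. It was 1 without library 4 labelled knockout, and 2 or 3 without each of the others. Over all genes the calls fell as well, from 418 to 61, 49, 151 and 237 without knockout-labelled libraries 1 to 4. Without wild type library 2 they rose to 881. Nothing particular to the members is read from these counts. On the recovered reads edgeR passed the same 3 members (3.1% of all genes), and DESeq2 (7.05%) and limma-voom (5.92%) these 3 with Trp53inp1.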

How the data were processed

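RNA was measured in 8 libraries, 4 labelled Nupr1-/- and 4 wild type, grouped by their labels. Per the submitters' processing notes, bcl2fastq, HISAT2, featureCounts, Subread and DESeq2 were used with mm10; the sources used here give no versions. The deposited values are a normalised signal per gene: in each library they are whole multiples (100% within a tolerance of 0.001) of 1 step, so the authors divided read counts by a size factor, and the values are not raw counts. For wild type library 3 the step is so near 1 that the recovery rests on its low values. Dividing by the step gave 2296101 to 4769401 reads per library. The 1 entry without a name held at most 0.00109% of reads and was left out. Entries in the table are above 0 in at least 3 libraries. The library kit does not mark strand.

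After adding 1, the deposited values were log2-transformed, genes at 10 or more in at least 4 libraries were kept (10989), and groups were compared with limma 3.58.1 (trend, robust; R 4.3.3) (two-sided; called at a p under 0.05 after Benjamini-Hochberg adjustment over all genes tested). Folds are differences between group means on that log2(value + 1) scale. The added 1 shrinks differences between low values, but with values near 0 in some libraries the fold of a low gene can still exceed the ratio of the group means. Recovered reads were also tested with edgeR 4.0.16, DESeq2 1.42.0 and limma-voom. GC content and length were those of the longest GENCODE M21 transcript (11719 symbols matched), and their trend was removed from each library with splines of 5 degrees of freedom. Other alternatives were added values of 5 and 10, TMM scaling, RLE factors, no filter, a filter at 50, each library left out, and a replicate term. The fits were checked on simulated counts with an equal dispersion for all genes and without a GC trend or an outlying library. That check therefore does not cover these features of the data.

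Members, lists and tests were chosen with earlier results of these data known. Named with every library's value are members with an adjusted or unadjusted p under 0.05 or groups that do not overlap, and the most abundant of each arm; a few others were added after their values were seen (Plk3, Fas, Perp and Tgfa). The labels do not say whether replicates came from separate mice, so p-values measure the spread between libraries, which may be technical. The result of 1 list of cell type markers is not reported here.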

Additional observations from a re-analysis of the deposited data

Results flagged for a closer look

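In 5 of 66 groups of 4 libraries (33 members in 2 groups), 1 library lay far from the other 3. The rule marks about 1 in 20 groups by chance if values are normally distributed. Normalised reads at low levels need not be, so the count is not compared with that rate. Wild type library 2 was the library far off for Fbxw7 (32.52 normalised reads, the others 162 to 186) and for Xpc (387.3, the others 189.7 to 205). Wild type library 3 was far off for Tgfa, with 14.96 where the others had 0 to 2.09. In knockout-labelled libraries, library 4 was low for Phlda3 (4.63, the others 23.0 to 23.7) and library 2 high for Ddit4 (19.95, the others 6.18 to 7.41).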

How the results depend on the processing

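The 3 called members (2 higher, 1 lower) became 2 (1 higher, 1 lower) with edgeR and RLE factors, without a filter and with the replicate block, and 4 (2 higher, 2 lower) with DESeq2 and limma-voom. With the GC and length trend removed, with or without the replicate block, and with that removal and without wild type library 2, there were 0 called members, 0 higher and 0 lower. Leaving out 1 library gave 0 to 3 called members (0 to 2 higher, 0 to 2 lower). Over all genes 418 calls became 775 with DESeq2, 651 with limma-voom, 277 with the replicate block, 35 with the GC and length trend removed, 32 with that removal and the block, 257 with that removal and without wild type library 2, and 49 to 881 without 1 library. The 2 called genes of the pathway lists became 5 with DESeq2 and limma-voom, 4 with an added value of 10 or a filter at 50, and 2 to 5 without 1 library. Members with groups that do not overlap numbered 5 (11.7% of all genes), 2 after the GC removal (7.75%), and 5 to 9 without 1 library. The 9 were found without wild type library 2, where the share over all genes was 20.4%. The median log2 change of the members ran from -0.08 to 0.27 without 1 library. The causes were not tested. The 3 called members kept their direction under all of these alternatives, while up to 5 of the other members changed sign under 1 of them. Libraries that share a replicate number did not deviate together (correlations from -0.057 to 0.015), so the numbers are not taken to pair libraries. Members under 50 reads limit what depth can show.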
